A study of Mus musculus with 11 samples.

Results

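The 10 genes examined here are Oxr1, Elmo1, Ptprk, Nfe2l2, Hmox1, Sod1, Sod2, Gpx4, Txnrd1 and Gclc, 10 of the 25827 genes counted in each library. They were chosen by name as genes of the defence against oxidative stress, and their values were read from single-nucleus RNA sequencing of cerebellum, brainstem and cervical spinal cord of mice. The main question was whether their levels in mature oligodendrocytes differ between mice that keep and mice that lack Il12rb2, a chain of the interleukin-12 receptor, in cells of neural origin. All mice were males of 8 to 12 weeks in which both alleles of Il12rb2 are flanked by loxP sites. Il12rb2fl/fl mice carry nothing else, and in their NestinCre/+Il12rb2fl/fl littermates the Nestin promoter, which works in neural precursor cells and thus in the lineage of neurons, astrocytes and oligodendrocytes but not of microglia, drives a Cre recombinase. In the EAE groups (experimental autoimmune encephalomyelitis, an inflammatory disease of the central nervous system that follows immunization with a myelin peptide, MOG35-55, in adjuvant with pertussis toxin), tissue was taken at day 10. There were 4 Il12rb2fl/fl EAE samples (fl EAE), 4 NestinCre/+Il12rb2fl/fl EAE samples (NestinCre EAE), 2 non-immunized Il12rb2fl/fl samples (fl naive 2 and 3) and 1 non-immunized NestinCre/+Il12rb2fl/fl sample (NestinCre naive 2). By the methods of the study the EAE samples came from different mice. By its reporting summary, the first steady-state data came from a NestinCre/+Il12rb2fl/fl mouse and an Il12rb2fl/fl control. A further naive Il12rb2fl/fl sample, sequenced with 1 EAE sample of each genotype, served as an internal control for reproducibility and batch. Whether the 2 fl naive samples came from different mice was not stated.

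Cells remove reactive oxygen species in steps. Superoxide dismutases turn superoxide into hydrogen peroxide, and glutathione- and thioredoxin-dependent enzymes reduce peroxides and oxidized lipids and proteins. The transcription factor NRF2, held back by KEAP1 and displaced from its sites by BACH1, switches on many of these enzymes when oxidants accumulate. Oligodendrocytes, the myelinating cells, hold much iron and lipid and are known as sensitive to oxidative damage.

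By role, Nfe2l2 encodes NRF2 itself. Hmox1 encodes haem oxygenase 1, Gclc the catalytic subunit of the enzyme for the first step of glutathione synthesis, and Txnrd1 the cytosolic thioredoxin reductase, all known as NRF2 targets. Sod1 encodes the cytosolic and Sod2 the mitochondrial superoxide dismutase, and Gpx4 encodes the peroxidase that reduces lipid hydroperoxides in membranes. Oxr1 encodes a TLDc-domain protein that protects against oxidative damage. Elmo1 encodes an engulfment adaptor that acts with DOCK proteins to activate the GTPase Rac, and Ptprk a receptor-type tyrosine phosphatase of cell adhesion. The last 3 are the members that the study itself named in mature oligodendrocytes from these samples, so their direction there is not independent evidence.

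The members differ greatly in length, which matters for nuclear RNA because intronic reads were counted. On GRCm39, Oxr1 spans 414.757 kb (chr15:41310698-41725454, plus strand), Elmo1 518.096 kb (chr13:20274428-20792523, plus strand) and Ptprk 523.894 kb (chr10:27950330-28474223, plus strand). The other 7 span 6.977 kb (Hmox1, chr8:75820241-75827217, plus strand) to 63.762 kb (Txnrd1, chr10:82669785-82733546, plus strand). Between these lie Gpx4 at chr10:79883000-79892273 and Sod1 at chr16:90017408-90027657, both on the plus strand, Nfe2l2 at chr2:75504739-75534985 on the minus strand, and Sod2 at chr17:13224095-13259591 and Gclc at chr9:77661797-77701770, both on the plus strand. Levels are therefore compared within a gene and not between genes.

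NRF2 binds the antioxidant response element, whose core is TGACNNNGC, and the promoters of the members were searched for it because 1 member is its own factor. RefSeq promoter windows on GRCm39 (250 bases before to 50 after a transcription start) were found for 7 of the 10 members, 13 windows in all; Oxr1, Hmox1 and Gclc had no entry. The core occurred on either strand in 4 of these 13 windows, from the 4 members Nfe2l2, Txnrd1, Ptprk and Sod1. Of all 32851 windows, 12.4% hold it. The Nfe2l2 match lies 231 bases before the start, upstream of the gene, and the Txnrd1 match lies in an intron, 83 bases before the second annotated start, on the opposite strand. Both are shown 5′ to 3′ along the gene with the core in capitals, Nfe2l2 from chr2:75535229-75535257 on the minus strand and Txnrd1 from chr10:82694938-82694966 on the plus strand.
Nfe2l2: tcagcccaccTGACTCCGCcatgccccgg
Txnrd1: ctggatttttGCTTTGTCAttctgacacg
A match of these letters is a description of the sequence and was not tested as a binding site.

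Of 189709 barcodes, 13120 to 22951 per sample with 40761007 to 86063464 UMIs (unique molecular identifiers, 1 per captured RNA molecule), 171998 nuclei were kept, with a median of 1867 to 3235 UMIs per sample. Mature oligodendrocytes were 20701 of them, 1066 to 3445 per sample, and were recognised by their markers, which summed to 7075 to 7610 UMIs per 1000000 UMIs of the class (CPM) in fl EAE and 7652 to 7873 CPM in NestinCre EAE. Microglia were 1988 nuclei, 86 to 339 per sample. Between 47 and 138 barcodes were shared by any pair of samples. The samples came from 3 sequencing runs: replicates 1 to 3 of both EAE groups from run 1, replicate 4 of both and fl naive 2 from run 2, and fl naive 3 and NestinCre naive 2 from run 3. Fl naive 2 and NestinCre EAE 4 stood apart in tissue content, with 1 and 0 Purkinje nuclei and 3445 and 3393 mature oligodendrocyte nuclei. Il12rb2 itself overlapped between the EAE groups in mature oligodendrocytes (1.95 to 4.13 CPM in fl EAE, 2.28 to 2.96 CPM in NestinCre EAE) and in granule cells (14.2 to 21.4 and 10.3 to 21.2 CPM), and its counted reads need not lie in the deleted part, so this does not check the labels.

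In mature oligodendrocytes, none of the 9 members tested passed in the comparison of NestinCre EAE with fl EAE. The fitted difference was positive for 8 of them, furthest from 0 for Elmo1 and Oxr1, followed by Txnrd1, Sod2 and Ptprk, and near 0 for Nfe2l2 and Gclc. Oxr1 stood at 744, 783, 762 and 960 CPM in fl EAE 1 to 4 and at 1179, 967, 865 and 1041 CPM in NestinCre EAE 1 to 4. The lowest values were those of the 3 run 1 fl EAE samples, and fl EAE 4 lay within the range of NestinCre EAE. The fitted log2 difference for Oxr1 was 0.32 (SE 0.126, 95% interval 0.05 to 0.59, n = 4 and 4), with an adjusted p of 0.379 in edgeR's quasi-likelihood test with Benjamini-Hochberg adjustment.

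Elmo1 stood at 1715, 1961, 1878 and 2081 CPM in fl EAE 1 to 4 and at 2867, 2567, 2201 and 2040 CPM in NestinCre EAE 1 to 4. The groups overlapped only through the run 2 pair, fl EAE 4 and NestinCre EAE 4. Group means were 1909 ± 154 CPM and 2419 ± 372 CPM (SD, n = 4 each). The log2 difference was 0.33 (SE 0.139, 95% interval 0.03 to 0.63; edgeR quasi-likelihood adjusted p = 0.428).

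Ptprk overlapped more widely, at 1480, 1494, 1375 and 1782 CPM in fl EAE 1 to 4 and 2059, 1650, 1403 and 1836 CPM in NestinCre EAE 1 to 4. Its log2 difference was 0.18 (SE 0.133, 95% interval -0.11 to 0.47; edgeR quasi-likelihood adjusted p = 0.711). All 3 long genes had their highest value in NestinCre EAE 1. Without that sample the log2 differences were 0.20 for Oxr1, 0.23 for Elmo1 and 0.04 for Ptprk. Within run 1 alone they were 0.43, 0.50 and 0.27, and none passed the edgeR quasi-likelihood test there (adjusted p = 0.114 for Oxr1 and 0.058 for Elmo1).

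Nfe2l2 was nearly level, at 44.8, 45.0, 41.1 and 44.8 CPM in fl EAE 1 to 4 and 42.8, 47.3, 46.9 and 39.7 CPM in NestinCre EAE 1 to 4. The groups overlapped fully. Its log2 difference was -0.005 (SE 0.111, 95% interval -0.25 to 0.24; edgeR quasi-likelihood adjusted p = 0.997). Hmox1 was at the limit of detection, with 1 to 3 UMIs in each fl EAE sample and 1 to 8 UMIs in each NestinCre EAE sample over the whole class, and was left out by the filter on low counts. Gclc had group means of 54.6 ± 2.01 CPM in fl EAE and 55.7 ± 4.77 CPM in NestinCre EAE, a log2 difference of 0.02 (SE 0.095, 95% interval -0.19 to 0.22; edgeR quasi-likelihood adjusted p = 0.980). For the factor and Gclc, these intervals leave room for differences of about 0.2 on the log2 scale in either direction.

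The superoxide dismutases and the peroxidase also overlapped between groups. Sod1 ran from 28.1 to 47.3 CPM in fl EAE and from 34.7 to 47.0 CPM in NestinCre EAE (log2 difference 0.10, SE 0.147). Sod2 ran from 28.4 to 52.2 CPM and from 45.1 to 65.2 CPM (0.23, SE 0.132), and Gpx4 from 91.5 to 131 CPM and from 105 to 138 CPM (0.11, SE 0.113). The lowest Sod1, Sod2 and Gpx4 values among EAE samples were all those of fl EAE 4, which had the deepest nuclei of the class (a median of 3048.5 UMIs, against 1656 to 2284 in the other EAE samples) and the lowest share of mitochondrial UMIs (0.244%, against 0.281 to 0.598%). The part of this in its values was not tested. Txnrd1 ran from 15.7 to 20.6 CPM in fl EAE and from 19.0 to 30.2 CPM in NestinCre EAE (0.28, SE 0.179). The edgeR quasi-likelihood test gave adjusted p-values from 0.599 to 0.897 for these 4 genes.

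Over all 12120 genes tested in mature oligodendrocytes, 212 were called (178 higher and 34 lower in NestinCre EAE), which is 1.75%, against 0 of the 9 members tested. The count was 134 without fl EAE 1 and 435 with no filter on low counts, and no member was called in either. Unadjusted p was under 0.05 for 1237 genes in edgeR and, among the members, for Oxr1 and Elmo1. DESeq2 called 244 genes and 0 members. The median log2 difference of the 9 members was 0.18, beside 0.001 for all genes tested. That median is the value of Ptprk itself. Oxr1, Elmo1 and Ptprk were named by the study from these samples, so the distance from all genes is not independent evidence.

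**Figure D1:**
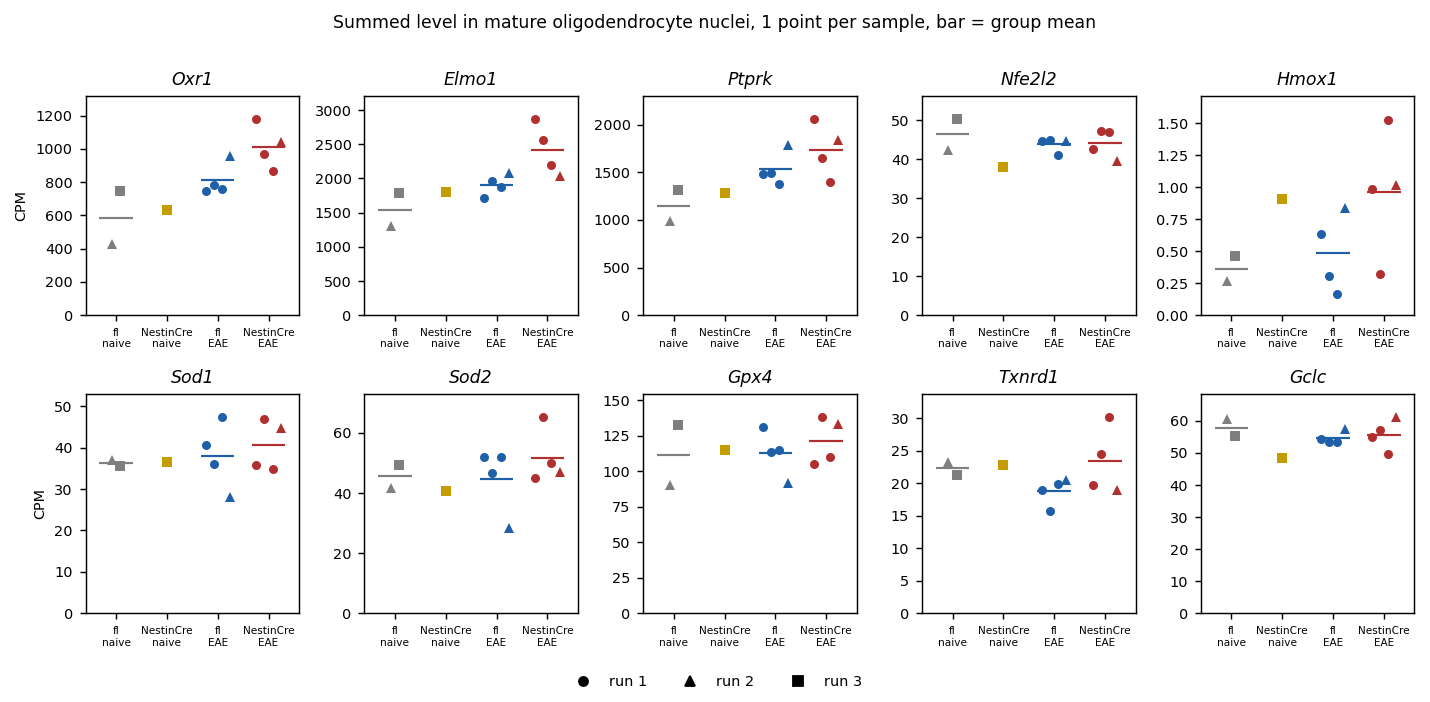
Level of each member in mature oligodendrocyte nuclei, as CPM (UMIs of the gene per 1000000 UMIs of the class, linear axes from 0), with 1 point per sample, the shape of a point giving its sequencing run and the bar the group mean. Oxr1 and Elmo1 have higher means in NestinCre EAE than in fl EAE, with overlap through fl EAE 4, and the groups overlap in the other 8 members as well.

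The class was made of 3 clusters, and the pattern of the long genes was alike in the larger 2. In the largest, with 61 to 67% of the class, Elmo1 averaged 2046 ± 226 CPM in fl EAE and 2605 ± 406 CPM in NestinCre EAE (SD, n = 4 each), and Oxr1 1033 ± 194 and 1275 ± 134 CPM. In the next, with 26 to 37% of the class, Elmo1 averaged 1744 ± 116 and 2188 ± 310 CPM, and Oxr1, at a lower level than in the largest cluster, 527 ± 41.0 and 630 ± 120 CPM. The small cluster with the highest summed level of interferon-induced genes held 4.80 to 12.1% of the class in NestinCre EAE and reached 10 nuclei in fl EAE 3 alone among the fl EAE samples. There Elmo1 averaged 2218 ± 399 CPM, Oxr1 983 ± 140 CPM, Ptprk 2143 ± 208 CPM and Nfe2l2 52.4 ± 15.3 CPM in NestinCre EAE (SD, n = 4), and the 65 nuclei of fl EAE 3 gave 1494, 949, 1827 and 38.2 CPM. Txnrd1 averaged 44.3 ± 16.8 CPM there in NestinCre EAE, beside 21.3 ± 4.65 and 20.8 ± 4.37 CPM in the larger clusters of the same samples and 21.8 CPM in this cluster of fl EAE 3. In this cluster the Txnrd1 and Nfe2l2 values rest on few UMIs, above all in the 65 nuclei of fl EAE 3, and were not tested. With this cluster left out, 160 of 12024 genes and 0 members were called, and the members' median log2 difference was 0.14.

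**Figure D2:**
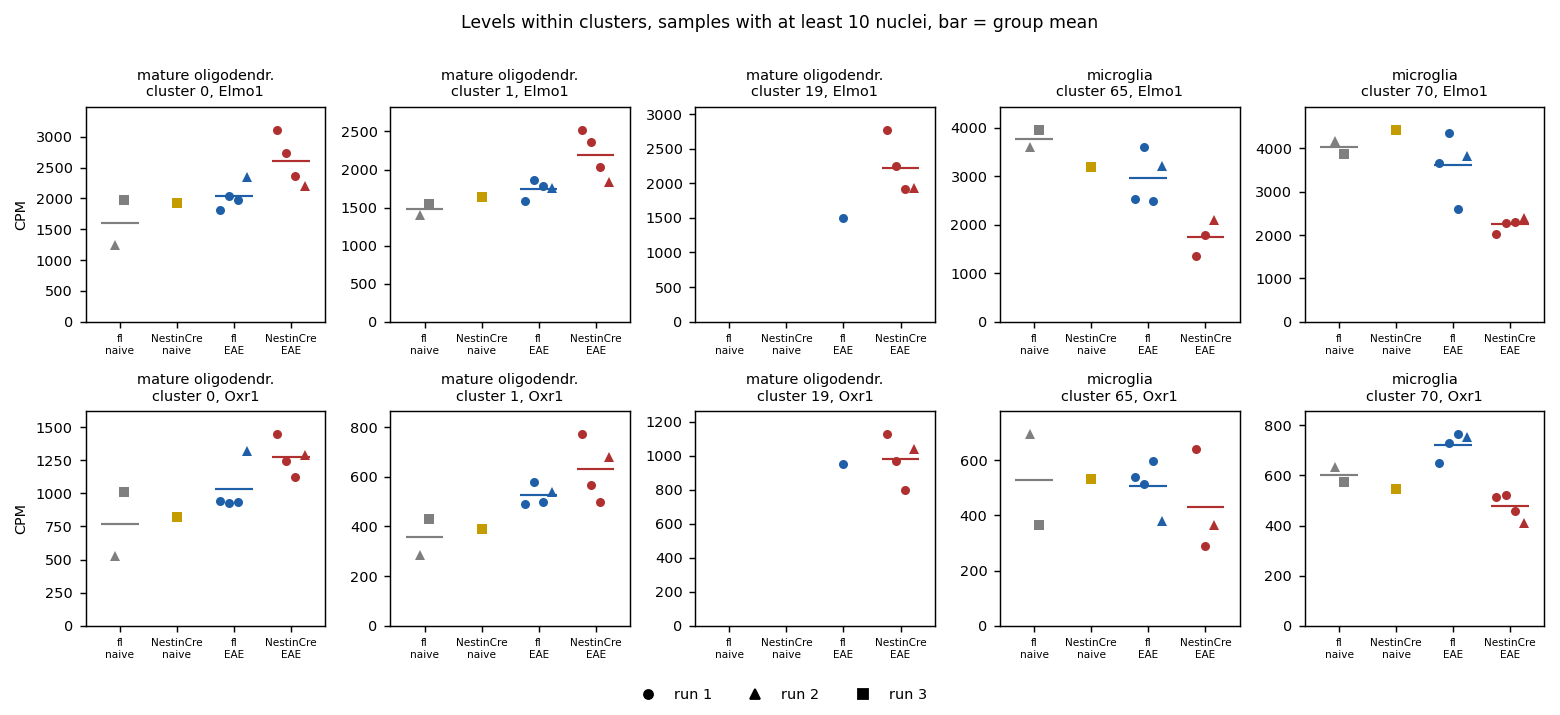
Levels of Elmo1 (upper row) and Oxr1 (lower row) as CPM within the 3 clusters of mature oligodendrocytes and the 2 of microglia, for samples with at least 10 nuclei in the cluster, with the run as the shape of a point and the group mean as a bar. The means of NestinCre EAE lie above those of fl EAE in oligodendrocyte clusters 0 and 1 and below them in both microglial clusters.

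The share of mature oligodendrocyte nuclei with a UMI of a member was compared at 1000 UMIs per nucleus, drawn at random from the UMIs of each, which left out 235 nuclei in fl EAE and 496 in NestinCre EAE. Oxr1 was then found in 50.3 ± 5.60% of nuclei in fl EAE and 56.5 ± 2.88% in NestinCre EAE (SD, n = 4 each; exact permutation p = 0.114). Elmo1 was found in 81.7 ± 3.70% and 86.9 ± 3.20% (exact permutation p = 0.143) and Ptprk in 73.1 ± 4.81% and 76.8 ± 5.39% (exact permutation p = 0.314). These 3 members gave a UMI in far more nuclei of the class than the others did. Gclc was found in 4.86 ± 0.222% and 5.52 ± 0.561% (exact permutation p = 0.0571) and Hmox1 in 0.0824% and 0.145%. The order of the groups for Gclc turned at 2000 UMIs per nucleus (10.4% in fl EAE and 9.48% in NestinCre EAE) and without thinning (12.0% and 10.9%). Over the 10 members the groups overlapped in every case, and 0.0286 is the smallest two-sided p that 4 samples against 4 allow. Without thinning the shares were 70.5% and 72.9% for Oxr1, 93.9% and 95.1% for Elmo1, and 89.0% and 89.7% for Ptprk. In nuclei where these genes are low the thinned shares were far smaller, 12.7 to 22.3% for Oxr1 and 2.38 to 11.7% for Elmo1 in astrocytes and 1.27 to 3.01% for Ptprk in granule cells of fl EAE.

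The members were then set beside other genes of the same pathways in mature oligodendrocytes, 79 genes in 8 lists. Among the regulators of Nfe2l2, 0 of 9 tested genes of 10 passed in either direction (median log2 difference 0.11), with Keap1, the sensor that holds NRF2 back, at 0.37 (edgeR adjusted p = 0.266) and Bach1, its repressor, at 0.25 (edgeR adjusted p = 0.638). Among genes of glutathione synthesis and recycling it was 0 of 10 tested of 11 (median -0.04), with the glutathione transferases Mgst1 at 1.22 (edgeR adjusted p = 0.147) and Gstm1 at 0.47 (edgeR adjusted p = 0.206). For superoxide and peroxide removal it was 0 of 6 tested of 10 (median 0.14), with the glutathione peroxidase Gpx1 at 0.74 (edgeR adjusted p = 0.177) and the methionine sulfoxide reductase Msra at 0.38. These lists thus held no called gene, beside 1.75% of all 12120 genes tested in the class. At that share, 0 calls in lists this short say little about these pathways.

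Thioredoxins and peroxiredoxins had 0 of 11 tested of 12 (median -0.02), with the thioredoxin inhibitor Txnip at 0.74 (edgeR adjusted p = 0.318) and the mitochondrial reductase Txnrd2 at -0.34. The NADPH and quinone enzymes had 0 of 8 (median 0.01), with malic enzyme Me1 at 0.37 and the quinone reductase Nqo2 at -0.53, and haem breakdown and iron storage had 0 of 7 tested of 8 (median 0.03), with the ferritin chains Fth1 at 0.22 and Ftl1 at 0.19. All of these medians lay between -0.04 and 0.14, beside 0.001 for all genes tested, of which 1.75% were called.

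Single called genes were found in the other 2 pathway lists and in the list of the study, beside 1.75% of all genes tested in the class. Calls this few are not a result about a pathway. Hif3a, a hypoxia-inducible factor subunit and the fourth gene that the study named with Oxr1, Elmo1 and Ptprk, was the only 1 of these 4 that passed, and since the study chose them on these samples its direction is not independent evidence. It stood at 25.1, 59.5, 27.4 and 36.4 CPM in fl EAE 1 to 4 and at 138.5, 119, 59.7 and 79.6 CPM in NestinCre EAE 1 to 4, without overlap and with fl EAE 2 next to NestinCre EAE 3. The log2 difference was 1.42 (SE 0.292; edgeR quasi-likelihood adjusted p = 0.028), and the call was lost without fl EAE 1 (adjusted p = 0.107), fl EAE 3 (1.24, adjusted p = 0.0822), NestinCre EAE 1 (1.21, adjusted p = 0.0714) or NestinCre EAE 2 (1.34, adjusted p = 0.0794).

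Cyba, a subunit of the superoxide-producing NADPH oxidase of phagocytes, was called among 4 tested of 8 NADPH oxidase genes. It stood at 0.834 to 3.91 CPM in fl EAE and 6.08 to 16.5 CPM in NestinCre EAE (log2 difference 2.34, SE 0.369, edgeR adjusted p = 0.00589). Dock2, the leukocyte Rac activator that works with ELMO1, was called among 9 tested of 12 relatives and partners of Oxr1, Elmo1 and Ptprk. It stood at 1.14 to 2.22 CPM and 4.43 to 8.56 CPM (1.86, SE 0.354, edgeR adjusted p = 0.0172), and lost its call without fl EAE 2 (1.75, adjusted p = 0.0698), fl EAE 3 (1.61, adjusted p = 0.0689) or NestinCre EAE 1 (1.62, adjusted p = 0.0609). Both are known from blood and microglial cells, and both were low here, at 3 to 50 UMIs per EAE sample.

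Other values moved with genotype in this class. The 9 markers of infiltrating phagocytes summed to 7.39 to 18.3 CPM in mature oligodendrocytes of fl EAE, to 167, 70.6 and 108 CPM in NestinCre EAE 1 to 3, and to 20.02 CPM in NestinCre EAE 4 (3.87 to 5.56 CPM in naive samples), with 4.03 and 25.8 CPM for Lyz2 and 0.744 and 4.50 CPM for Ccr2 when the UMIs of a group's samples were pooled. The microglial markers summed to 126 to 163 and 150 to 172 CPM, and the 11 interferon-induced genes, all called higher (log2 differences 2.71 to 4.14), to 64.5 to 252.5 CPM in fl EAE and 566.1 to 1598.3 CPM in NestinCre EAE. Their part in the values of Cyba, Dock2, Elmo1 or Oxr1 was not tested.

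Microglia, which do not arise from the neural precursors in which the Nestin promoter is active, went the other way for Elmo1 and Oxr1. Both were lower in NestinCre EAE, and they were the only members called for genotype in EAE in any of the 10 classes tested. Elmo1 stood at 3343, 4028, 2558 and 3730 CPM in fl EAE 1 to 4 and at 2019, 2138, 2259 and 2307 CPM in NestinCre EAE 1 to 4. The groups did not overlap, and the 3 naive samples, at 3742 to 3918 CPM, lay with the upper fl EAE samples. The log2 difference was -0.63 (SE 0.143, 95% interval -0.93 to -0.33; edgeR quasi-likelihood adjusted p = 0.00891).

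Oxr1 in microglia stood at 617, 633, 709 and 695 CPM in fl EAE 1 to 4 and at 509, 541, 443 and 399 CPM in NestinCre EAE 1 to 4, again without overlap. The naive samples, at 467 to 668 CPM, spanned both groups. Its log2 difference was -0.49 (SE 0.141, 95% interval -0.78 to -0.19; edgeR quasi-likelihood adjusted p = 0.0419). This call was near the threshold and was made in 6 of 18 settings, the reported one included. Of the 8 samples left out in turn, only NestinCre EAE 2 left the Oxr1 call standing (adjusted p = 0.0537 to 0.215 without each of the others), whereas the Elmo1 call was lost only without fl EAE 2 (log2 difference -0.52, adjusted p = 0.0567).

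Nfe2l2 in microglia stood at 177, 219, 196 and 238 CPM in fl EAE 1 to 4 and at 258, 199, 400 and 346 CPM in NestinCre EAE 1 to 4. NestinCre EAE 2 alone lay within the fl EAE range. The log2 difference was 0.56 (SE 0.198, 95% interval 0.15 to 0.98) and did not pass edgeR's quasi-likelihood test (adjusted p = 0.107), though it did without NestinCre EAE 2 (0.69, adjusted p = 0.0295) and with no filter on low counts (0.61, adjusted p = 0.0193). The other 5 members tested did not pass, with log2 differences of -0.36 for Sod1, 0.46 for Sod2, 0.002 for Gpx4, 0.26 for Txnrd1 and -0.50 for Gclc. Ptprk was left out by the filter on low counts and was not tested in microglia. Sod2 did not overlap between groups, at 28.8 to 43.0 CPM in fl EAE and 45.5 to 57.7 CPM in NestinCre EAE. The share of all genes without overlap was not counted, in a class where 6.75% of all genes tested were called. The lowest adjusted p of Sod2 over 18 settings of edgeR or DESeq2 was 0.376. Hmox1 gave 0 UMIs in fl EAE 1 to 3 and 3 UMIs in fl EAE 4, and 5.29 to 15.7 CPM in NestinCre EAE, and was not tested; a count of 0 allows up to 16.1, 18.8 and 7.17 CPM in those 3 samples (3 counts of the class total, counting error only). Within the larger of the microglial clusters Hmox1 lay at 0 to 4.25 CPM in fl EAE and 4.29 to 12.4 CPM in NestinCre EAE, and within the smaller at 0 to 47.3 CPM and 8.08 to 34.6 CPM, both from few UMIs.

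Of 7352 genes tested in microglia, 496 were called (355 higher and 141 lower), 6.75%, against 2 of 8 members, both lower. Other values moved with genotype in this class. The markers of infiltrating phagocytes summed to 6.27 to 43.0 CPM in fl EAE and 58.1 to 206.5 CPM in NestinCre EAE, and the microglial markers to 5362 to 6641 and 3786 to 5156 CPM (6965 to 8622 CPM in naive samples). The interferon-induced genes summed to 395 to 1416 CPM in fl EAE and 3062 to 3549 CPM in NestinCre EAE. The part of these in the lower Elmo1 and Oxr1 was not tested. Of the 2 microglial clusters, the larger held 47.7 to 77.2% of the class in fl EAE and 61.7 to 95.9% in NestinCre EAE. Within it Elmo1 averaged 3614 ± 742 and 2248 ± 157 CPM and Oxr1 723 ± 51.4 and 476 ± 51.6 CPM (SD, n = 4 each), and with that cluster alone the same 2 members were called lower (384 of 6156 genes called, 6.24%). In the smaller cluster Elmo1 averaged 2959 ± 541 CPM in fl EAE and 1746 ± 374 CPM in the 3 NestinCre EAE samples with 10 nuclei, and Oxr1 506 ± 92.3 and 431 ± 184 CPM.

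**Figure D3:**
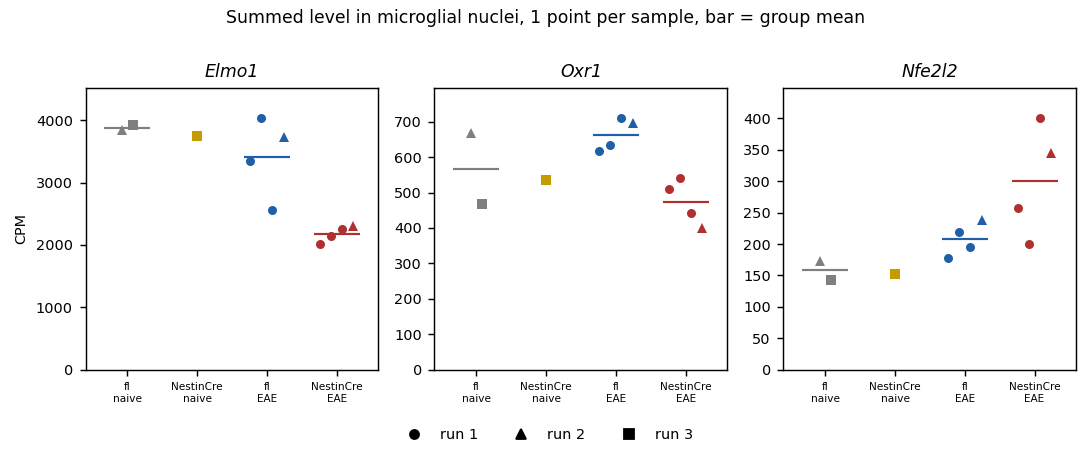
Levels of Elmo1, Oxr1 and Nfe2l2 in microglial nuclei as CPM (linear axes from 0), with 1 point per sample, the shape of a point giving its sequencing run and the bar the group mean. The 4 NestinCre EAE samples lie at 2019 to 2307 CPM for Elmo1 and 399 to 541 CPM for Oxr1, below every fl EAE sample, and for Nfe2l2 they lie at 199 to 400 CPM and overlap with fl EAE.

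The difference between mature oligodendrocytes and microglia was compared directly, as log2(CPM + 1) in the former minus the latter within each sample. For Elmo1 it was -0.82 ± 0.26 in fl EAE and 0.14 ± 0.31 in NestinCre EAE (SD, n = 4 each), a change of 0.96 (exact permutation p = 0.0286). In fl EAE microglia held more Elmo1 than oligodendrocytes relative to their total, and in NestinCre EAE the classes were close. For Oxr1 it was 0.29 ± 0.15 and 1.10 ± 0.24, a change of 0.81 (exact permutation p = 0.0286). That p is unadjusted for the 10 members, takes no account of run, and is the smallest possible over the 70 assignments. No other of the 10 members reached it (for Nfe2l2, -0.49, exact permutation p = 0.143). The contrast was made for the members alone, so no share over all genes stands beside it. Elmo1 and Oxr1 already lay apart in microglia by themselves, where 6.75% of all genes tested were called. Both were also named by the study in mature oligodendrocytes from these samples. The oligodendrocyte side of the contrast is therefore not independent evidence.

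**Figure D4:**
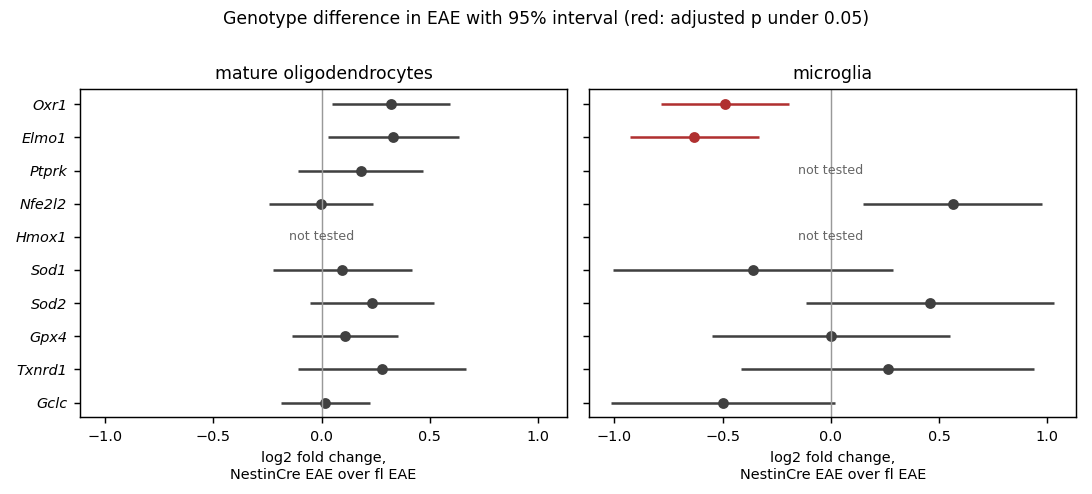
Fitted log2 fold change of each member tested between NestinCre EAE and fl EAE (points) with its 95% interval (lines) in mature oligodendrocytes and in microglia, red where the adjusted p was under 0.05. Hmox1 was not tested in either class, nor Ptprk in microglia. Elmo1 and Oxr1 lie at 0.33 and 0.32 in mature oligodendrocytes and at -0.63 and -0.49 in microglia, and these microglial values are the called ones.

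In the other 8 classes tested no member was called. The shares of all genes called there were 1.29% in granule cells (205 of 15909, but 2 genes without fl EAE 1 and 26 without fl EAE 2), 0.628% in astrocytes, 0.71% in oligodendrocyte progenitor cells, 0.234% in other neurons, 0.217% in molecular layer interneurons, 0.0511% in Bergmann glia, 0.0387% in unipolar brush cells and 0% in vascular, meningeal and choroid cells, where 114 of 1817 genes had an unadjusted p under 0.05 in edgeR and DESeq2 called 6. Nfe2l2 in astrocytes had the smallest unadjusted p of a member in these 8 classes, close to that of Hmox1 in granule cells. It stood at 71.7, 76.3, 79.1 and 74.5 CPM in fl EAE 1 to 4 and at 17.1, 47.6, 33.3 and 54.6 CPM in NestinCre EAE 1 to 4, with the naive samples at 70.2 to 85.1 CPM. The lowest of these rest on few UMIs, since 1 UMI of this class equals 5.69 CPM in NestinCre EAE 1 and 3.70 CPM in NestinCre EAE 3. The groups did not overlap, and the log2 difference of -0.91 (SE 0.286, 95% interval -1.51 to -0.31) missed the threshold in edgeR's quasi-likelihood test (adjusted p = 0.385). The share of all astrocyte genes without overlap was not counted. The unadjusted p was also under 0.05 for Hmox1 in granule cells (log2 difference 1.11, SE 0.306, at 0.224 to 0.724 CPM in fl EAE and 0.602 to 1.51 CPM in NestinCre EAE, edgeR adjusted p = 0.183), Gclc in molecular layer interneurons (-0.21, edgeR adjusted p = 0.610) and Oxr1 in vascular, meningeal and choroid cells (-0.94, edgeR adjusted p = 0.726). These members were picked by unadjusted p from all member tests of the 8 classes, where some such values arise by chance.

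The EAE samples were then compared with the naive ones to see what immunization changed, in a fit of all 11 samples with run as a term. In mature oligodendrocytes of fl mice the fitted differences of the 3 long genes were positive, and none passed. Oxr1 had a log2 difference of 1.08 (SE 0.230, 95% interval 0.58 to 1.57; edgeR quasi-likelihood adjusted p = 0.0560), Ptprk of 0.80 (SE 0.240, adjusted p = 0.161) and Elmo1 of 0.52 (SE 0.244, adjusted p = 0.426). In fl naive 2 and 3 the levels were 428 and 745 CPM for Oxr1, 986 and 1318 CPM for Ptprk, and 1306 and 1782 CPM for Elmo1. Fl naive 3 lay within the range of fl EAE for Oxr1 and Elmo1 and just below it for Ptprk. Run 2 is the only run that holds both fl states, with fl EAE 4 at 960 CPM, and the other EAE samples enter the fitted difference through the genotype and run terms. Fl naive 3 sets only the term of run 3, so fl naive 2 is the only naive sample behind the fitted differences in fl mice. With no run term the Oxr1 difference was 0.54, and without run 2 as well it was 0.13 (adjusted p = 0.814), with 0.24 for Ptprk and 0.15 for Elmo1. Of 13577 genes, 98 were called, 0.722%, and 0 of 9 members.

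By DESeq2, Oxr1 (adjusted p = 0.001) and Ptprk (adjusted p = 0.0388) were called in fl mice, so for these genes the call depended on the tool. In edgeR Oxr1 also passed without NestinCre EAE 1 (1.14, adjusted p = 0.0158), NestinCre EAE 3 (1.05, adjusted p = 0.0493) or NestinCre EAE 4 (1.23, adjusted p = 0.0159), samples that enter this comparison through the shared spread and run terms, and Ptprk passed without NestinCre EAE 1 (0.86, adjusted p = 0.0372). Among the redox enzymes Txnrd1 had a log2 difference of -0.39, Gpx4 of 0.25 and Sod2 of -0.28, and Sod1, Gclc and the factor Nfe2l2 lay within 0.07 of 0. No run holds both NestinCre states, so the fit links them through the difference between the fl naive samples of runs 2 and 3. In NestinCre mice Oxr1 had a log2 difference of 1.53 between EAE and naive (SE 0.338, edgeR quasi-likelihood adjusted p = 0.110; by DESeq2, 0.0047), Ptprk of 0.91 and Elmo1 of 0.73, against the lone naive sample at 634, 1285 and 1799 CPM. With no run term Oxr1 had a difference of 0.69 (edgeR adjusted p = 0.321), and without run 2 as well of 0.70 (edgeR adjusted p = 0.0639). Without NestinCre EAE 1 (1.46, adjusted p = 0.0338) or NestinCre EAE 4 (1.79, adjusted p = 0.0362) Oxr1 passed in edgeR. There 31 genes were called, 0.228%, and 0 of 9 members. Of the listed genes, Hif3a passed in both genotypes and Gstm1 in NestinCre mice with the run term. The fl value rests on fl naive 2 as its only naive sample. The NestinCre values rest on the difference between fl naive 2 and fl naive 3 as well. None of these 3 calls held with no run term alone. For Hif3a the log2 difference in fl mice was 3.40 (edgeR adjusted p = 0.0460), with no run term 1.46 (adjusted p = 0.364) and without run 2 as well 0.49 (adjusted p = 0.752). In NestinCre mice it was 5.58 (edgeR adjusted p = 0.0352), 2.71 (adjusted p = 0.179) and 2.82 (adjusted p = 0.0249). Its naive values were 3.05 CPM in fl naive 2, 27.8 CPM in fl naive 3, within the range of fl EAE, and 15.3 CPM in NestinCre naive 2. Gstm1 had a log2 difference of 2.19 (edgeR adjusted p = 0.0448), with no run term 0.79 (adjusted p = 0.469) and without run 2 as well 0.85 (adjusted p = 0.0930). With 1 naive sample, the fit takes its spread from the other groups. Fl naive 2 and NestinCre EAE 4, the samples that stood apart in tissue content, enter these differences.

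Between naive mice of the 2 genotypes, edgeR called 0 of 13577 genes in mature oligodendrocytes (341 at an unadjusted p under 0.05, and 0 by DESeq2). For the difference of the EAE effect between genotypes it called 0 (674 at an unadjusted p under 0.05, and 6 by DESeq2). No member was called in either. With the run term the naive comparison sets NestinCre naive 2 against fl naive 3 of the same run, and the other difference rests on that pair too. The pair has no replicates and its spread was taken from the other groups, so these results do not show that the genotypes are alike. In microglia Elmo1 changed little between fl naive and fl EAE (log2 difference -0.06) and had a difference of -0.68 between NestinCre naive and NestinCre EAE (adjusted p = 0.653 in edgeR), and the difference of these effects, -0.61, did not pass (edgeR adjusted p = 0.787). Oxr1 gave -0.09, -0.82 and -0.74, and the first of these, for fl mice, turned to 0.24 with no run term and 0.53 without run 2 as well. With no run term the microglial difference between NestinCre naive and NestinCre EAE was -0.76 for Elmo1 (edgeR adjusted p = 0.0340) and -0.17 for Oxr1 (edgeR adjusted p = 0.814), in a setting that called 3.46% of all genes. There the lone naive sample is the only NestinCre sample of run 3, so that state and run cannot be told apart. In the other 9 classes no member was called in any of these comparisons by edgeR with the run term or by DESeq2. The shares of all genes called in fl mice, EAE against naive, were 0.334% in astrocytes, 0.0537% in other neurons, 0.0508% in oligodendrocyte progenitor cells, 0.0231% in molecular layer interneurons and 0.0169% in unipolar brush cells, and in NestinCre mice 0.0527% in microglia and 0.0381% in oligodendrocyte progenitor cells.

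Across 11 classes of nuclei in fl EAE, each long gene had its own pattern, and the redox enzymes were more even. Elmo1 was highest in microglia (3415 ± 636 CPM, SD, n = 4), followed without overlap by mature oligodendrocytes (1909 ± 154 CPM), which overlapped with Purkinje cells (1863 ± 255 CPM). A gap without overlap followed, down to 465 CPM in molecular layer interneurons, and granule cells stood at 177 ± 6.66 CPM and Bergmann glia at 64.2 CPM. Mature oligodendrocytes held 31.3% of all Elmo1 UMIs of the fl EAE samples. Oxr1 was highest in granule cells (1623 ± 132 CPM), then unipolar brush cells (1221 ± 194 CPM) and mature oligodendrocytes (812 ± 99.6 CPM), each apart from the one before, and lowest in astrocytes (266 ± 24.6 CPM). Ptprk was highest in mature oligodendrocytes (1533 ± 175 CPM), overlapping with molecular layer interneurons (1178 ± 149 CPM), and was at 20.5 CPM in granule cells and 14.6 CPM in microglia.

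The level of Nfe2l2 was highest in microglia, vascular cells and astroglia, at 207 ± 26.5 CPM in microglia, 161 CPM in vascular, meningeal and choroid cells, 84.3 CPM in Bergmann glia and 75.4 ± 3.08 CPM in astrocytes, each overlapping with its neighbour. Mature oligodendrocytes followed without overlap at 43.9 ± 1.88 CPM, and the neuronal classes and oligodendrocyte progenitor cells lay at 9.55 CPM or lower. Gpx4 was highest in mature oligodendrocytes (113 ± 16.3 CPM), overlapping with granule cells (97.5 CPM), and lowest in Purkinje cells (20.7 CPM). Sod2 was highest in molecular layer interneurons (146 ± 4.30 CPM) and stood at 44.8 ± 11.3 CPM in mature oligodendrocytes and 36.5 CPM in microglia. Gclc, Sod1 and Txnrd1 were highest in vascular, meningeal and choroid cells (122 ± 52.3, 86.7 ± 47.0 and 42.7 CPM), from only 42, 28 and 15 UMIs in all. In mature oligodendrocytes these genes stood at 54.6, 38.0 and 18.8 CPM. The highest class stayed the same for 8 to 10 of the 10 members when each fl EAE sample was left out in turn. Hmox1 averaged 2.70 CPM or less in every class.

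**Figure D5:**
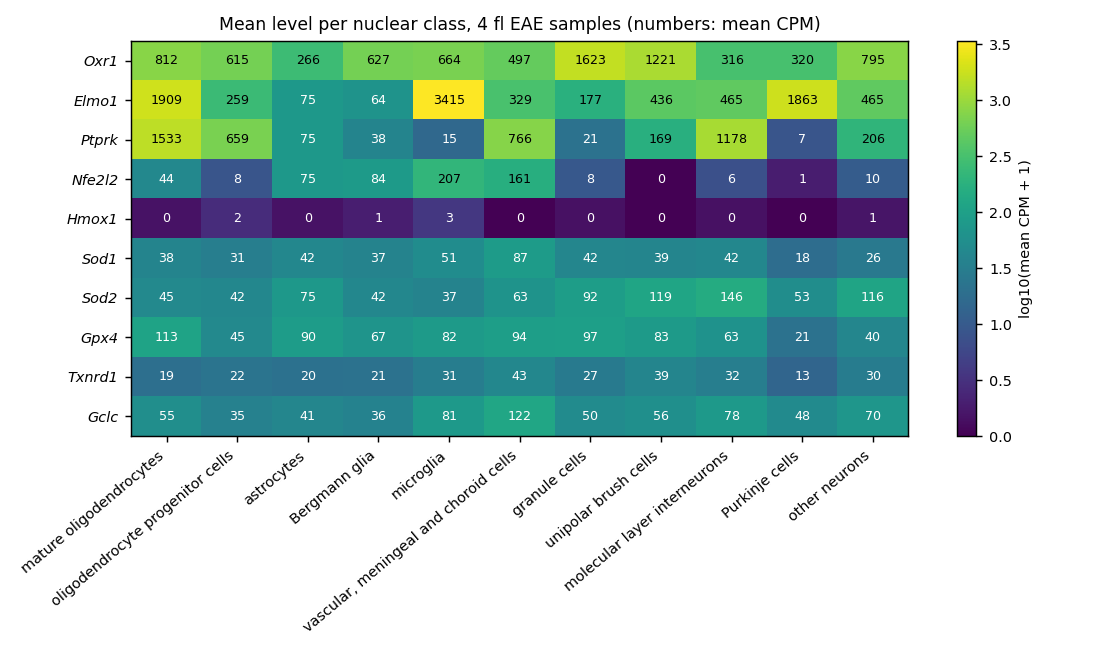
Mean level of each member over the 4 fl EAE samples in 11 classes of nuclei, printed as mean CPM and coloured by log10(mean CPM + 1), to be read along a row because gene length differs between rows. Elmo1 peaks in microglia at 3415 CPM, Oxr1 in granule cells at 1623 CPM, Ptprk in mature oligodendrocytes at 1533 CPM and Nfe2l2 in microglia at 207 CPM.

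For each member the genes with the most similar pattern over these 11 classes were found among 13992 genes, as Pearson's r of log2(mean CPM + 1); the points share libraries, and no test was made. They were Rnf112 (r = 0.88) and Rab37 (0.86) for Oxr1, Gm45828 (0.95) and Gm37447 (0.92) for Elmo1, and Parm1 (0.89) and Ppp3cc (0.88) for Ptprk. For Nfe2l2 they were Utp11 (0.98) and Nmi (0.96), for Sod1 Taf10 (0.98) and Bclaf1 (0.97), for Sod2 Dlat and Ints10 (0.95 each), and for Gpx4 Dctn3 (0.98) and Ndufb5 (0.96). For Txnrd1 they were Fam160b1 (0.97) and Fyttd1 (0.95), for Gclc Adnp2 (0.96) and Socs5 (0.95), and for Hmox1 Rmi2 and Rgs19 (0.91 each). The likeness of Hmox1 rests on very low levels.

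Infiltrating blood cells were numerous only in NestinCre EAE 1 to 3, with 102 to 160 nuclei of infiltrating phagocytes and 72 to 158 of neutrophils per sample, so members could be described there but not compared between groups. Sod2 averaged 170 ± 38.6 CPM in phagocytes and 135 ± 50.8 CPM in neutrophils, beside 52.5 ± 6.03 CPM in microglia of the same 3 samples (SD, n = 3 each). Elmo1 was lower than in microglia, at 1181 ± 192 CPM in phagocytes and 774 ± 92.9 CPM in neutrophils, beside 2139 ± 120 CPM. Oxr1 averaged 407 ± 153, 751 ± 254 and 498 ± 49.6 CPM in phagocytes, neutrophils and microglia, Nfe2l2 211 ± 78.6, 270 ± 182 and 286 ± 103 CPM, and Gpx4 95.1 ± 11.8, 135 ± 28.6 and 74.6 ± 19.7 CPM. Hmox1 gave 6, 8 and 17 UMIs in all over these samples.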

How the data were processed

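Nuclei were sorted by a DNA stain and their RNA was captured in droplets. The authors deposited UMI counts per gene and barcode, 1 matrix per sample, with no normalization; per the file headers Cell Ranger 7.0.0 was used for run 1 and 6.0.2 for runs 2 and 3, with GRCm39 and a GENCODE annotation and intronic reads counted. These members and lists were chosen with earlier results of these data known.

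Nuclei with at least 200 genes (run 1) or 500 genes (runs 2 and 3) and under 5% mitochondrial UMIs were kept. Doublets were scored after Scrublet on 30 principal components; after cluster shares had been seen, the rule became to leave out the highest-scoring expected share of doublets of unlike classes (0.8% per 1000 barcodes, times the chance of unlike classes) and 15 clusters in which they exceeded 40%. Counts of 3000 variable genes were reduced to 40 components, integrated by sample with an implementation of Harmony and clustered by the Leiden method (igraph 0.11.9; 20 neighbours, resolutions 2 and 6). The 90 clusters were named from markers (at least 3 at 20 CPM and 2 times the median cluster), and 2.05% of nuclei stayed unnamed. Python 3.11.15, numpy 2.4.6, scipy 1.17.1 and pandas 2.3.3 were used.

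UMIs were summed per sample and class, since nuclei are not replicates, and a class was tested if every sample gave 10 nuclei or more. edgeR 4.0.16 in R 4.3.3 (TMM, filterByExpr, quasi-likelihood test, two-sided, run as a term) was fitted to 8 EAE samples for genotype and to all 11 for the rest, with Benjamini-Hochberg adjustment over all genes of a class and a threshold of 0.05. The fits were checked on simulated data. Permutation tests were exact over 70 assignments of the 8 EAE samples, two-sided, and took no account of run. Alternatives were DESeq2 1.42.0, other size factors, no filter, no run term, run 1 only, a limit of 6000 UMIs, Scrublet's automatic threshold, a replicate block and leaving out each sample; those without the interferon-high cluster, with the larger microglial cluster alone, and without run 2 were chosen after seeing the data. Named genes were all members, list genes that passed in mature oligodendrocytes or else the 2 of smallest p, and the 2 genes most like each member. The limits given for counts of 0 cover counting error only. The intervals of the fitted differences rest on the standard errors of the quasi-likelihood fit, which include the spread between samples.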

Additional observations from a re-analysis of the deposited data

Results flagged for a closer look

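In mature oligodendrocytes of fl EAE, Nfe2l2 was lower in fl EAE 3 (41.1 CPM) than in the other 3 samples, which lay between 44.8 and 45.0 CPM, a gap that exceeds Dixon's limit for 4 samples. In microglia, Hmox1 gave 10.8 CPM in fl EAE 4, from 3 UMIs, and 0 in the other 3 fl EAE samples. With those 3 at 0, any count in fl EAE 4 would exceed the limit, so this flag says nothing about the size of the gap. In 40 groups of 4 samples 2 such gaps were found, and chance gives about 1 in 20.

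For 2 of the 10 members the genotype groups lay apart when mature oligodendrocytes were set against microglia. The contrast was made for the members alone, so the share over all genes is not known. Both genes lay apart in microglia by themselves, where 6.75% of all genes tested were called. Both were also named by the study in mature oligodendrocytes from these samples, so that side of the contrast is not independent evidence. Set against microglia of the same sample, Elmo1 in mature oligodendrocytes was higher by 0.96 on the log2(CPM + 1) scale in NestinCre EAE than in fl EAE, and Oxr1 by 0.81 (exact permutation p = 0.0286 for each, the smallest that 4 against 4 samples allow and unadjusted for the 10 members compared). In all 4 NestinCre EAE samples these differences lay above those of all 4 fl EAE samples. The permutation took no account of run.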

How the results depend on the processing

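Of the counts over comparisons recomputed under another setting, 105 stayed within 1.5 times the reported count and 25 did not. Of single genes and totals, 814 kept direction and side of the threshold, or for totals stayed within 1.5 times the reported count. Among single genes 32 lost a call, 14 gained one and 18 changed sign, and 26 totals did not stay within that range. In mature oligodendrocytes the genotype comparison in EAE called 0 members in every setting, and its count over all genes was 212, against 435 with no filter and 134 to 264 over leaving out each sample (134 without fl EAE 1). In the other classes the number of members called fell from 2 to 1 with no run term, Scrublet's automatic threshold, the replicate block or run 1 only, and ran from 0 to 3 over leaving out each sample. For EAE against naive in fl mice it was 0, against 2 by DESeq2, 1 with no filter, 1 under 6000 UMIs and 0 to 2 over leaving out each sample. For NestinCre mice it was 0, against 1 by DESeq2, 1 with no filter, 1 with no run term, 1 without run 2 and 0 to 1 over leaving out each sample. The cause was not tested. The sign of the log2 genotype difference in EAE changed with run 1 only for Nfe2l2 (0.107), Sod1 (-0.0585) and Ftl1 (-0.00298) in mature oligodendrocytes and Gpx4 (-0.316) in microglia, and for the last also by DESeq2 (-0.00446), with other size factors (-0.00880) and in the larger cluster (-0.00680). Over leaving out each sample the difference ran from -0.0573 to 0.107 for Nfe2l2, -0.0588 to 0.210 for Sod1, -0.00513 to 0.0531 for Gclc, -0.00306 to 0.319 for Ftl1 and -0.317 to 0.191 for microglial Gpx4. Granule cells had 205 calls over all genes but 2 without fl EAE 1 and 26 without fl EAE 2.

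Same-numbered samples did not deviate together in mature oligodendrocytes (correlations -0.099, 0.130 and 0.012 in run 1), so the numbers were not taken to pair the samples. With the replicate number as a block there were 167 calls in mature oligodendrocytes, 483 in microglia (496 without) and 64 in granule cells, and of the members Elmo1 stayed called in microglia (-0.61, adjusted p = 0.0147 in edgeR) and Oxr1 did not (-0.49, adjusted p = 0.0619). The EAE against naive difference in fl mice could not be fitted without fl naive 2, nor any NestinCre naive comparison without its only sample.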
